A study of Mus musculus with 12 samples.

Results

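For every gene measured in MC38 tumors, the interaction, which is the departure of 2 treatments given together (SFIH and an antibody against PD-1) from additive effects, was calculated as the SFIH effect in mice given the antibody minus the SFIH effect in mice given none, that is (Comb minus PD) minus (SFIH minus Con) on the log2 scale. All 12 tumors of the series enter this value, and of the 23282 genes listed, the 13464 with enough counts were tested. A value of 0 means that the effects of the 2 treatments add up on the log2 scale, a positive value that the combined treatment lay above that sum, and a negative value that it lay below. The MC38 line derives from a colon carcinoma of a mouse, and its cells were injected subcutaneously into female wild-type C57BL/6 mice, whose age the labels give as 6 weeks. The Con group received saline with DMSO, Tween 80 and the isotype antibody IgG2a. The SFIH group received 50 mg/kg of SFIH, the sesquiterpene lactone-rich hexane fraction of the root of Inula helenium, by daily intraperitoneal injection. The study's treatment scheme lists IgG2a for this group as well. Mice of the PD group were given 200 μg of anti-PD-1 antibody (clone RMP1-14) 2 times a week, and the Comb group had both treatments. Each group consisted of 3 tumors collected on day 19, numbered as replicates 1 to 3, with 1 library for each tumor.

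PD-1 is an inhibitory receptor on activated T cells, and an antibody against it lifts the brake that its ligands on tumor and myeloid cells apply. Sesquiterpene lactones react with thiol groups of proteins and are known for blocking NF-κB and raising oxidative stress. Macrophages of a tumor take on different states: interferon gamma from T cells drives antigen presentation and the chemokine Cxcl9, whereas interleukins 4 and 13, acting through STAT6, induce genes such as Retnla, Mgl2 and Mrc1 that mark M2-like macrophages. In whole tumor tissue, fewer cells of a type and less RNA per cell cannot be told apart.

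The 12 libraries held 7870741 to 12261032 counts (median 9932321). The labels call the samples tumor cells, but RNA was taken from pieces of tumor tissue, and markers of macrophages were present in all 12 libraries (23 of 23 markers with a count in each). Comb replicate 3 stood apart from every other tumor, and the main results are therefore given with and without it. Its mean level of the mitosis genes was 3.46 on the log2(CPM + 1) scale, against 6.79 to 7.15 in the other 11 tumors, and its DNA replication genes were at 3.78 against 6.28 to 6.55. It also held the most RNA of tissues next to a tumor under the skin. The summed level of 36 skeletal muscle markers was 11800 CPM in Comb replicate 3 and 1350 CPM in Comb replicate 1, against 101 CPM in Comb replicate 2, 137 to 380 CPM in PD, 128 to 183 CPM in SFIH and 142 to 152 CPM in Con. For 21 skin markers it was 820 CPM, against 14.1 to 87 CPM in the other 11 tumors, and for 22 adipocyte markers 3690 CPM, with 1190 CPM in Comb replicate 2 and 469 to 721 CPM elsewhere. The summed macrophage markers rank the Comb tumors in the order 2650, 10400 and 32900 CPM for replicates 1, 2 and 3, against 1260 to 2240 CPM without antibody and 2480 to 5610 CPM in PD. What part these tissues have in the interaction values was not tested.

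After adjustment for the number of genes, edgeR and limma-voom called no gene as departing from additive effects and DESeq2 called 1. Of 13464 genes, 0 (0%) had an adjusted p under 0.05 in the quasi-likelihood test of edgeR, the smallest adjusted p was 0.894, and 344 genes (2.55%) had an unadjusted p under 0.05, where a test with no true departure puts 5%. Of these, 269 (2.0%) were higher than additive and 75 (0.557%) lower, and without TMM, which moved the median interaction of all genes from -0.03 to -0.20, 180 were higher and 84 lower. DESeq2 called 1 gene (0.00743%), 2610528A11Rik, and 0 of 13621 without Comb replicate 3, and limma-voom, with and without sample weights, called 0. The precision was low: the median standard error of the interaction was 0.51 and the median half-width of its 95% confidence interval 1.11 on the log2 scale, so that the interval of a typical gene reached more than 2-fold to either side.

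The counts at the unadjusted threshold depended on single tumors, as the bar plot of counts with each tumor left out shows. Without Comb replicate 3, 97 of 13621 genes were higher (0.712%) and 114 lower (0.837%), and the median standard error fell to 0.35. Of the 344 genes, 121 were also among these 211, all with the same sign, which is 35.2% of the first set and 57.3% of the second. Leaving out Comb replicate 1 gave 1617 higher and 767 lower, and leaving out Comb replicate 2 or PD replicate 2 gave 563 and 488 higher and 172 and 143 lower. The 269 dropped below 180 without Con replicate 1 (168), Con replicate 3 (163), SFIH replicate 2 (139), SFIH replicate 3 (177), PD replicate 1 (142) or PD replicate 3 (142). The 75 dropped to 41, 46, 43 and 37 without Con replicate 1, Con replicate 3, SFIH replicate 2 and PD replicate 1. Not a single gene passed the adjusted threshold in any of these 12 fits.

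**Figure D1:**
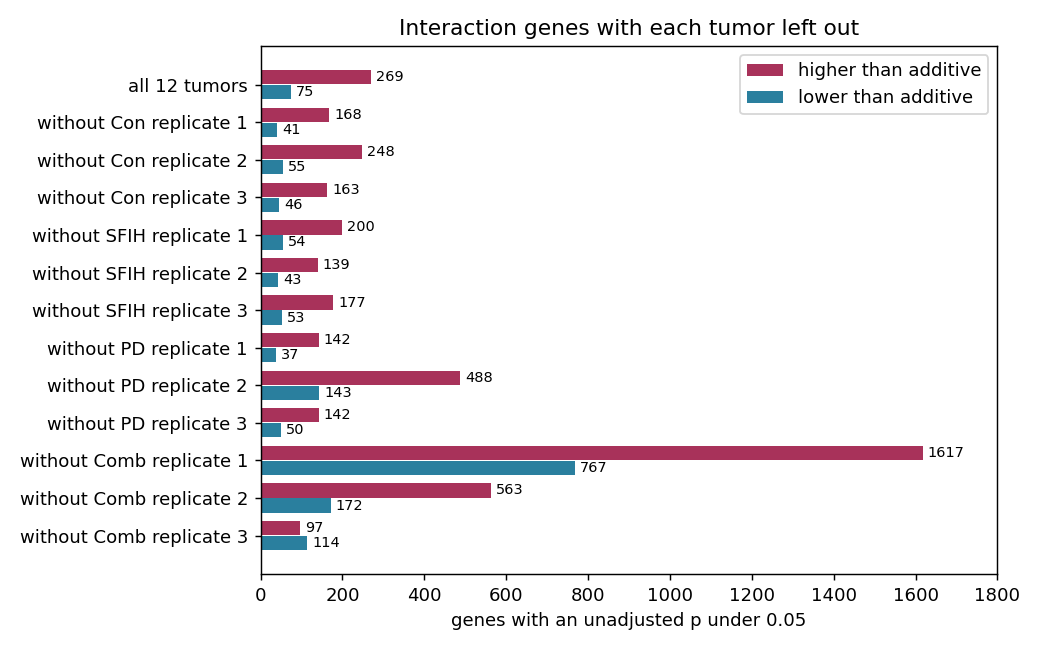
Number of genes with an unadjusted edgeR p under 0.05 for the interaction (horizontal axis) in the fit of all 12 tumors and in the 12 fits that leave out 1 tumor each, split into genes higher (red) and lower (blue) than additive. The full fit gives 269 and 75, and leaving out a Comb tumor moves these counts to between 97 and 1617 and between 114 and 767.

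The departures were widest in the tumor that stood apart. For each gene, the level that the 2 single treatments would add up to (SFIH plus PD minus Con, as group means of log2(CPM + 1)) was subtracted from each Comb tumor. The standard deviation of this departure over genes was 0.48 in Comb replicate 1, 0.56 in Comb replicate 2 and 1.56 in Comb replicate 3, and it exceeded 1 in either direction for 637, 950 and 6291 genes. Among the 269 genes higher than additive, the largest departure was in Comb replicate 3 for 249, although all 3 Comb tumors lay above the additive level for 208. In the 75 lower genes, the lowest value was in Comb replicate 3 for 53, and all 3 Comb tumors lay below the additive level for all 75. Most genes in both sets had their extreme in the combined treatment: the Comb mean was the highest of the 4 groups for 240 of the 269 and the lowest for 62 of the 75. Both sets were picked by the interaction, which favours such positions of Comb, so these counts are not separate evidence.

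The standard deviation over genes of the fitted SFIH effect was 0.46 without antibody and 0.96 with it, or 0.47 and 0.61 when Comb replicate 3 was left out and 2 Comb tumors remained. These values include the spread between replicates, whose standard deviation, pooled over genes on the log2(CPM + 1) scale, was 0.31 for each group without antibody, 0.40 for PD and 0.93 for Comb, so that wider effects with antibody are not shown by them. Across the 13464 genes, which are not independent replicates, the effects without and with antibody had a Pearson r of 0.36 and a Spearman rho of 0.38, and without Comb replicate 3 these were 0.35 and 0.44. These comparisons share no tumor.

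**Figure D2:**
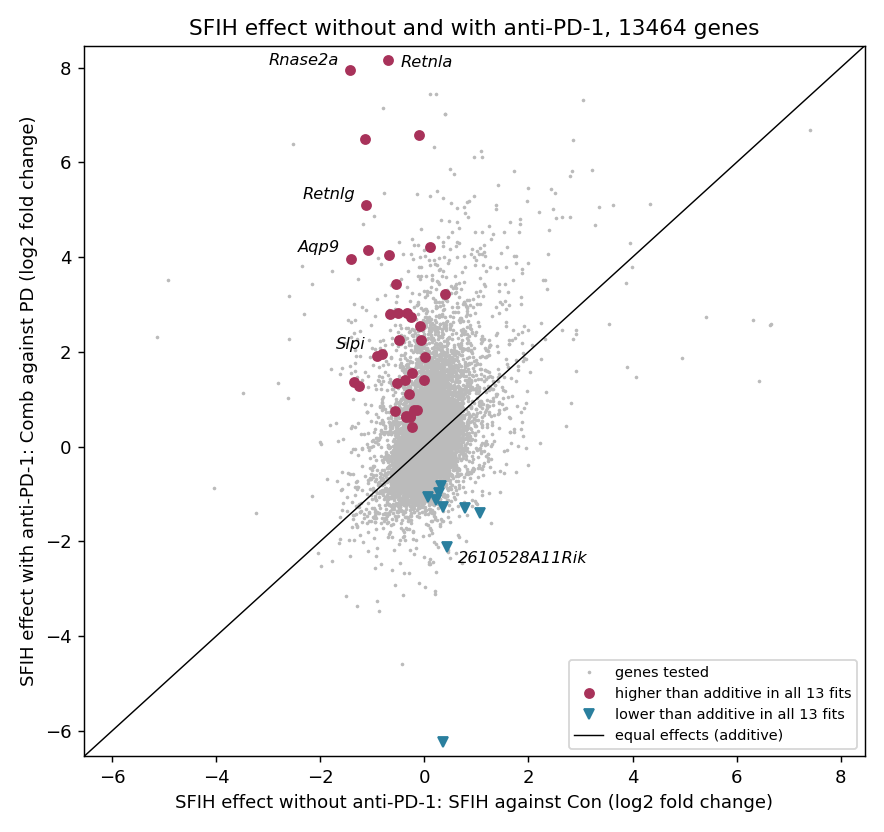
Log2 fold change of SFIH against Con (horizontal axis) and of Comb against PD (vertical axis) for 13464 genes (grey), with the line of equal effects, on which the interaction is 0. Red circles are the 36 genes above the line and blue triangles the 9 genes below it that kept their sign and an unadjusted p under 0.05 in all 13 fits.

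In all, 45 genes kept their sign and an unadjusted edgeR p under 0.05 in the full fit and in each of the 12 fits without 1 tumor, 36 higher (0.267%) and 9 lower (0.0668%). The 36 were of 2 kinds. In 27 of them the Comb mean was above the other 3 groups and in 9 it lay between the other groups. Of the 9 lower genes, 8 had their lowest mean in Comb. The 45 genes were picked by their interaction, which favours an extreme in Comb.

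The resistin-like genes Retnla and Retnlg, neighbours on chromosome 16, were among the genes furthest above additive. Retnla encodes a secreted protein that macrophages make in response to interleukins 4 and 13, and Retnlg a related protein of myeloid cells. The 250 bases before their starts are printed because both genes had among the highest interaction values and both windows hold the palindrome TTCNNNNGAA, the type of site that STAT6 binds. It is in capitals below, in the RefSeq sequence of build GRCm38.p6 on the + strand, chr16:48842359-48842608 and chr16:48872358-48872607.
Retnla: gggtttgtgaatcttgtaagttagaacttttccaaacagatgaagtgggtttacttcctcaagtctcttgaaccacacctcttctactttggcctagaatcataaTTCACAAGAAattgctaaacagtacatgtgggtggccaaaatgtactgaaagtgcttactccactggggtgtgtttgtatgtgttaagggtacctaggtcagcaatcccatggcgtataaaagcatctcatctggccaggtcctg
Retnlg: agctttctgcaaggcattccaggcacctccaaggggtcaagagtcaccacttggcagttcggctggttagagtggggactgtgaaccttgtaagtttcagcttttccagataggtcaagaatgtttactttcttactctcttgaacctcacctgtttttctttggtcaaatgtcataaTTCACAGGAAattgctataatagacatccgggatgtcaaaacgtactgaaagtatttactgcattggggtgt
The match lies 145 to 136 bases before the start of Retnla and 72 to 63 bases before that of Retnlg, and the copies differ by A7G, counted from the first base of the match in Retnla. Of the 30 bases made of the match and 10 bases to either side, 24 are identical. Among 32851 such windows of mouse genes, 5.85% hold the palindrome, which reads the same on both strands. Of the 10 genes of the M2-like list with a window, 2 hold it, Retnla and Pdcd1lg2. A match is a description of the sequence only.

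Retnla had 56 to 170 counts in Con, 22 to 148 with SFIH, 89 to 901 with anti-PD-1, and 236, 15352 and 440642 counts in Comb replicates 1, 2 and 3. On the log2(CPM + 1) scale its mean was 3.31 ± 0.80 (SD, n = 3) in Con, 2.31 ± 1.5 with SFIH, 5.42 ± 1.83 with anti-PD-1 and 10.35 ± 5.57 in Comb, against an additive level of 4.42. The Comb tumors did not move as one: replicate 1 lay 0.16 above the additive level, inside the range of PD, whereas replicates 2 and 3 lay 6.37 and 11.27 above it and outside all other tumors. edgeR compares the mean counts of the groups, on which the interaction was 8.85 (95% interval 2.81 to 14.89, adjusted p = 0.894), and it was 4.55 (SE 1.91) without Comb replicate 3. SFIH alone had a log2 fold change of -0.70 (SE 1.76), and in the presence of antibody 8.16 (SE 2.28).

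Retnlg followed the same order, with 31 to 35 counts in Con, 10 to 24 with SFIH, 15 to 149 with anti-PD-1, and 105, 429 and 7551 in Comb. Its interaction was 6.22 (95% interval 1.96 to 10.47) and 2.78 (SE 1.12) without Comb replicate 3. Rnase2a, an eosinophil-associated ribonuclease, had 1 to 43 counts in the 9 tumors of the other groups and 7, 866 and 14789 counts in Comb. Its interaction of 9.37 (95% interval 3.11 to 15.62), 5.72 without Comb replicate 3 (SE 2.12), was the largest of the genes named by their p-value, and Comb replicate 1 was within the range of the other groups. Itm2a, a membrane protein gene, showed the same split, with 18 to 109 counts in the other 9 tumors and 71, 290 and 1550 in Comb (interaction 4.73, SE 1.45, and 2.82 without Comb replicate 3).

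The M2-like macrophage list, which includes Retnla, had the largest share of members past the unadjusted threshold among the immune lists. Of 15 genes tested, 14 were higher than additive, 5 at an unadjusted p under 0.05 and 0 lower at it, with a median of 2.34. Over all genes tested, 47.6% were higher, 2.0% were higher and 0.557% lower at that threshold, and the median was -0.03. Without Comb replicate 3, 12 of 15 were higher, 1 of them past the threshold, and the median was 0.80. The mean level of the list was 2.88 to 3.26 in Con, 2.79 to 3.59 with SFIH, 3.41 to 4.71 with anti-PD-1, and 3.93, 5.59 and 7.83 in Comb, where the additive level was 4.08. Comb replicate 1 thus lay within PD, and the 2 others above all other tumors. This order of the Comb tumors was not particular to the M2-like list. Macrophages were at 6.14, 7.53 and 9.04 in Comb replicates 1, 2 and 3, collagens and fibroblasts at 5.99, 7.2 and 8.01, and adipocytes at 2.77, 4.2 and 4.97. In these lists too, replicates 2 and 3 lay above all other tumors.

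Beside Retnla, the members past the threshold were Mgl2, Cd163, Ccl24 and Folr2. Mgl2, a C-type lectin that binds galactose, had 23 to 46 counts in Con, 27 to 45 with SFIH, 57 to 150 with anti-PD-1 and 111, 660 and 5826 in Comb (interaction 4.44, 95% interval 0.96 to 7.93). Without Comb replicate 3 its value was 1.85 (SE 0.98). The scavenger receptor Cd163, which clears hemoglobin, was the one whose 3 Comb tumors all lay above all others, at levels of 4.18, 5.75 and 7.77 against 1.46 to 3.88 (interaction 3.13, SE 1.22, and 1.68, SE 0.92, without Comb replicate 3). Folr2, the folate receptor of macrophages, and the chemokine Ccl24 had values of 3.56 and 7.94, and of 0.80 and 3.52 without that tumor. Other members gave wide intervals: Mrc1 2.30 (95% interval -0.19 to 4.78), Clec10a 2.66 (-0.16 to 5.49) and Chil3 1.32 (-0.59 to 3.24), which were 1.09, 0.93 and 0.16 without Comb replicate 3. Pdcd1lg2, the second PD-1 ligand, turned to -0.49 without Comb replicate 3. Ccl8, a monocyte chemokine listed with the inflammatory response, stood with the M2-like genes at 825 to 1479 counts in Con, 988 to 2313 with SFIH, 1218 to 4764 with anti-PD-1 and 3189, 21763 and 224818 in Comb. Its interaction was 4.45 (95% interval 0.79 to 8.10), and 1.62 (SE 1.07) without Comb replicate 3.

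Of the genes that kept their sign and threshold in all 13 fits, 5 with their lowest mean in PD are given here. Slpi, the secretory leukocyte peptidase inhibitor, had levels of 6.95 to 7.75 in Con, 6.33 to 6.72 with SFIH and 4.21 to 5.56 with anti-PD-1, and of 7.91, 5.36 and 5.02 in Comb, where the additive level was 3.83. All 3 Comb tumors were above that level, although replicates 2 and 3 overlapped PD and only replicate 1 reached Con. The interaction was 2.82 (95% interval 0.72 to 4.92), and was 3.26 (SE 0.79) without Comb replicate 3 and 1.30 in the lowest fit without 1 tumor. SFIH against Con gave -0.91 (SE 0.67) and Comb against PD 1.91 (SE 0.69), an effect of opposite sign.

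Arap2, a GTPase-activating protein for Arf proteins, had 466 to 618 counts in Con, 332 to 441 with SFIH, 143 to 242 with anti-PD-1 and 255 to 416 in Comb. Its levels in Comb, 5.37, 4.92 and 5.40, were 1.01 to 1.49 above the additive level of 3.91, and its interaction of 1.31 (95% interval 0.47 to 2.16) was 1.23 (SE 0.38) without Comb replicate 3. The levels of Enpp2, which encodes the lysophospholipase autotaxin, were 5.46 to 6.37 in Con, 5.10 to 5.86 with SFIH, 2.41 to 4.06 with anti-PD-1 and 3.83 to 4.88 in Comb (interaction 1.86, SE 0.65; 1.77 without Comb replicate 3). Ceruloplasmin, Cp, a copper-carrying ferroxidase, was at 6.32 to 6.97 in Con, 6.57 to 6.68 with SFIH, 5.17 to 5.72 with anti-PD-1 and 6.03 to 7.53 in Comb, with no overlap between Comb and PD (interaction 1.41, SE 0.47; 0.93 without Comb replicate 3). Urah, an enzyme of uric acid breakdown, gave 3.15 (SE 1.08), on no more than 68.0 counts on average in its highest group. Slpi, Enpp2, Cp and Urah were chosen after their values were seen, so that their low level in PD is part of how they were chosen.

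Among the genes lower than additive, 2610528A11Rik had the smallest p of all genes tested. It is also named Gpr15l and encodes a small secreted ligand of the receptor GPR15. Its counts were 53 to 75 in Con, 95 to 106 with SFIH, 63 to 116 with anti-PD-1 and 32, 18 and 11 in Comb, so that all 3 Comb tumors lay below all 9 others. The mean level was 2.81 ± 0.26 (SD, n = 3) in Con, 3.21 ± 0.26 with SFIH, 3.36 ± 0.37 with anti-PD-1 and 1.62 ± 0.41 in Comb, and the Comb tumors were 1.71, 2.13 and 2.53 below the additive level of 3.75. The interaction was -2.56 (SE 0.52, 95% interval -3.70 to -1.42), with an adjusted p of 0.894 from edgeR and an adjusted p of 0.0133 from DESeq2. It was -2.30 (SE 0.46) without Comb replicate 3 and between -2.89 and -2.30 over the 12 fits without 1 tumor, with an adjusted p of 0.0133 to 1 over all alternatives. DESeq2 without Comb replicate 3 called 0 of 13621 genes, so its call of this gene was lost there. SFIH alone gave 0.45 (SE 0.36) and anti-PD-1 antibody alone 0.63 (SE 0.36), both with the opposite sign to Comb against PD, -2.11 (SE 0.38).

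Other genes lower than additive in all 13 fits had their lowest mean in Comb. Suv420h2, now Kmt5c, a methyltransferase for lysine 20 of histone H4, had 60 to 79 counts in Con, 67 to 114 with SFIH, 35 to 55 with anti-PD-1 and 29, 23 and 14 in Comb, below all other tumors (interaction -1.35, 95% interval -2.25 to -0.46; -1.16 without Comb replicate 3). Kmt2d, a methyltransferase for lysine 4 of histone H3, had levels of 4.21 to 4.79 in Con, 4.40 to 4.86 with SFIH, 4.86 to 5.40 with anti-PD-1 and 4.41, 4.13 and 3.52 in Comb (interaction -1.14, 95% interval -2.01 to -0.27). Only in Comb replicates 2 and 3 was it below all others. Zranb3, a helicase that restarts stalled replication forks, had an interaction of -1.15 (95% interval -1.99 to -0.31), with Comb at 2.45 to 3.0 and the others at 2.98 to 3.66, so that the groups touched. These values were -0.92 for Kmt2d and -1.11 for Zranb3 without Comb replicate 3.

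Nol3, an inhibitor of apoptosis with a caspase recruitment domain, had 107 to 146 counts in Con, 144 to 218 with SFIH, 74 to 199 with anti-PD-1 and 92, 69 and 54 in Comb (interaction -1.28, 95% interval -2.19 to -0.36; -1.17 without Comb replicate 3). The neighbouring gene 4931428F04Rik had -1.64 (95% interval -2.87 to -0.41; -1.28 without Comb replicate 3). In the GENCODE M21 annotation these genes overlap at their 3′ ends on opposite strands, and whether strand was used in counting is not given in the sources used here, so that they may share reads. Phldb1 (-0.90), the G protein subunit Gna11 (-0.73), the SNARE protein Bnip1 (-0.72) and the collagen chain Col5a3 (-1.19) passed the unadjusted threshold with all tumors, but each had an unadjusted p above 0.05 in at least 1 fit without a tumor. Mmp10, a matrix metalloproteinase, had 7 to 14 counts in Con, 8 to 28 with SFIH, 2 to 14 with anti-PD-1 and 0 in each Comb tumor, where a count of 0 allows up to 3, and it was picked out because of these counts.

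**Figure D3:**
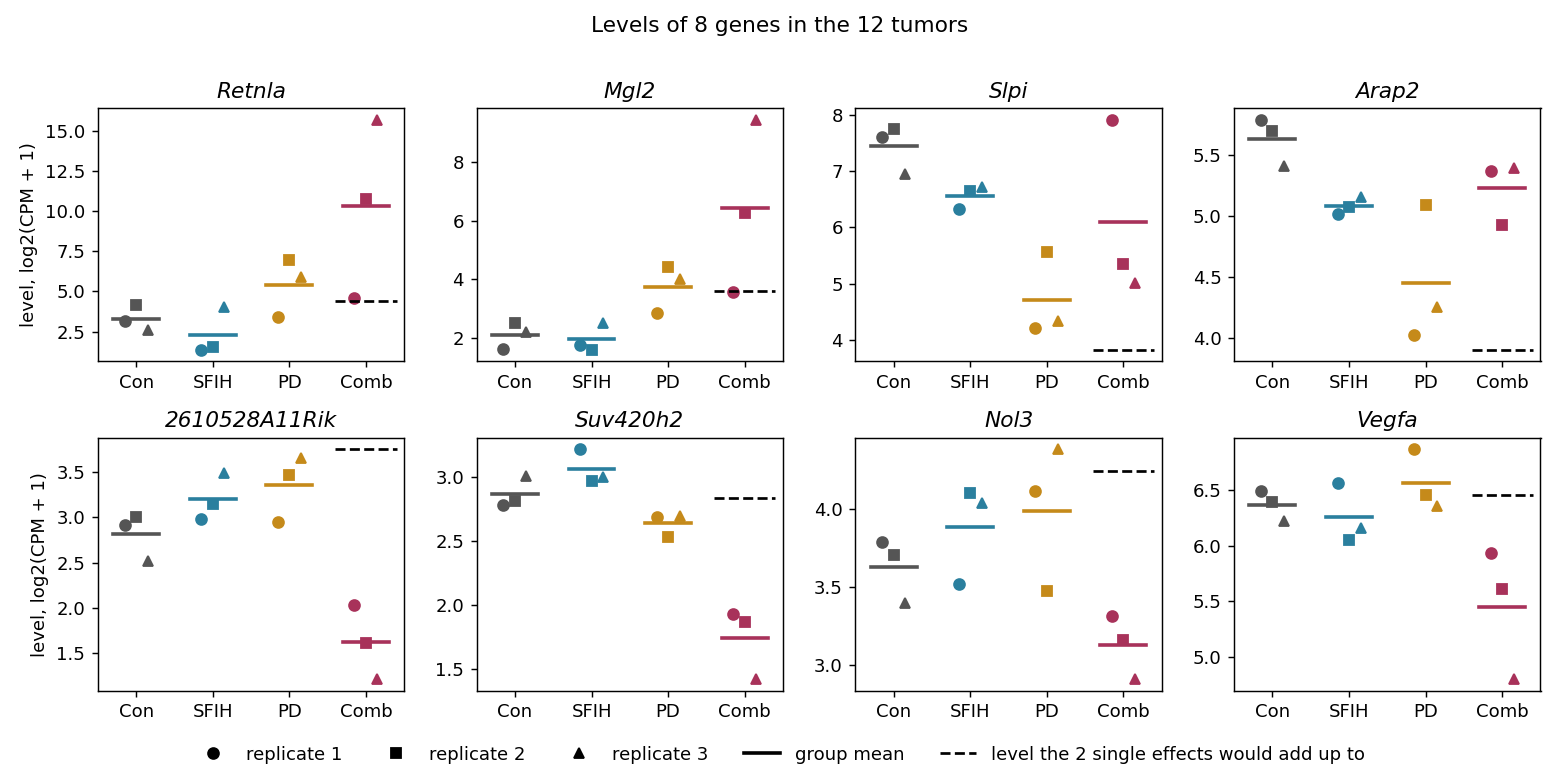
Levels of 8 genes as log2(CPM + 1) (vertical axes, which do not start at 0) in the 4 groups, with a symbol for each replicate, a line at the group mean and, over Comb, a dashed line at the level the 2 single effects would add up to. Retnla and Mgl2 have Comb replicate 1 near the dashed line and replicates 2 and 3 above it, all 3 Comb tumors are above it for Slpi and Arap2, and all 3 are below it for 2610528A11Rik, Suv420h2, Nol3 and Vegfa.

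Genes of T cells and of the PD-1 axis measured on their own all had a 95% interval that included 0. Ifng, the cytokine of activated T and NK cells, had 2 to 14 counts in Con, 7 to 29 with SFIH, 17 to 44 with anti-PD-1 and 14, 92 and 92 in Comb, with an interaction of 0.46 (SE 1.25, 95% interval -2.30 to 3.21). Cxcl9, its chemokine target, had levels of 5.97 to 7.26 in Con, 6.73 to 6.92 with SFIH, 8.05 to 8.55 with anti-PD-1 and 7.61, 9.45 and 9.18 in Comb, where the additive level was 8.40. Its interaction was 0.62 (95% interval -0.70 to 1.93), with Comb replicate 1 below PD and the other 2 above. The interaction of Cd8a was 0.19 (SE 0.80), that of Gzmb, a cytotoxic granule protease, -0.36 (SE 0.83), and that of Cd3e 0.77 (SE 1.05), and the signs of these 3 changed with single tumors. Cd4 had 2.34 (95% interval -0.41 to 5.09) and 1.16 without Comb replicate 3, and the NK cell receptor Ncr1 1.39 (SE 1.28). For Pdcd1, which encodes PD-1, the value was -0.49 (SE 1.01), and for its ligand Cd274 -0.76 (SE 0.58, 95% interval -2.04 to 0.53), with levels of 5.42 to 5.48 in Con, 4.93 to 5.95 with SFIH, 6.34 to 7.19 with anti-PD-1 and 5.18 to 6.89 in Comb.

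Angiogenic and immunosuppressive genes measured on their own gave 1 value past the unadjusted threshold. Vegfa, the growth factor of blood vessels, had 822 to 1010 counts in Con, 675 to 1285 with SFIH, 637 to 1079 with anti-PD-1 and 621, 415 and 224 in Comb. Its levels in Comb, 5.94, 5.61 and 4.80, lay below all other tumors, which were at 6.05 to 6.86 (interaction -0.97, 95% interval -1.83 to -0.11, adjusted p = 0.894). Without Comb replicate 3 it was -0.71 (SE 0.27), and without each tumor in turn it was -1.22 to -0.71 and did not pass the unadjusted threshold in every fit. Tgfb2 was at -0.70 (95% interval -1.82 to 0.43) and Ido2, a tryptophan-degrading enzyme, at -0.54 (SE 0.87). Tgfb1 was too low to test, with 4 to 16 counts in Con, SFIH and PD, 8 in Comb replicate 1 and 0 in Comb replicates 2 and 3. Mki67, a marker of cycling cells, had -0.68 (SE 0.89), with 195 counts in Comb replicate 3 and 2448 to 5436 in the other 11 tumors. The leukocyte gene Ptprc gave 0.87 (SE 0.64), the myeloid integrin Itgam 0.45 (SE 0.55) and the macrophage gene Adgre1, which encodes F4/80, 2.08 (95% interval -0.23 to 4.39). Leaving out Comb replicate 3 gave 0.27 for Ptprc, -0.05 for Itgam and 0.61 for Adgre1.

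Of the immune lists among the 33 lists of genes, M2-like macrophages, antigen presentation on MHC class II and macrophages had the highest medians. Over all genes tested, 47.6% were higher than additive and 2.0% were higher at the unadjusted threshold. For macrophages 22 of 22 genes were higher than additive, with a median of 1.46, but only Cd68, a lysosomal protein, passed the unadjusted threshold (2.22, SE 0.97), and without Comb replicate 3 it was at 0.66 (SE 0.51) and no longer past it. For MHC class II it was 12 of 12, with a median of 1.94 and 0 past the threshold, Cd74 at 2.89 (SE 1.37), H2-Aa at 2.88 (SE 1.35) and H2-Ab1 at 2.39 (SE 1.26), which were 0.60, 0.76 and 0.54 without Comb replicate 3. Without Comb replicate 3 the medians were 0.41 and 0.50, with 20 of 22 and 10 of 12 higher, against 49.1% of all genes. In both lists Comb replicate 1 was 0.50 or more below the additive level, replicate 2 was 0.89 and 0.79 above it, and replicate 3 2.40 and 2.67 above it.

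T cell genes (18 of 23 higher, median 0.81) and genes of cytotoxic lymphocytes (14 of 21, 0.42) had medians of -0.07 and -0.01 without Comb replicate 3, and 0 of their members passed the threshold in either direction. Granzyme values were spread: Gzma was at 2.91 (SE 1.38; 1.08 without Comb replicate 3) and Gzmc at -1.41 (SE 0.72), the latter with levels of 3.56 to 4.46 in Comb, 4.46 to 5.93 with anti-PD-1 and 6.01 to 7.68 without antibody. Checkpoint receptors and ligands had a median of 0.51 over 15 genes and -0.01 without Comb replicate 3. Dendritic cell genes had 12 of 16 higher and a median of 0.52, and 0.13 without that tumor. The transcription factor Batf3, the 1 member past the threshold, was at 2.40 (SE 1.0), and at 0.63 (SE 0.44) without that tumor, where it did not pass. The B and plasma cell list had 7 of 9 genes higher, 2 of them past the threshold, and a median of 1.11, or 0.10 without Comb replicate 3. For all of these lists the background is all genes tested, of which 47.6% were higher and 2.0% were higher past the threshold. Cd22, a receptor of B cells, was at 2.73 (SE 1.24), and at 1.15 and not past the threshold without that tumor. Jchain, which joins the units of secreted IgA and IgM, had 0 to 45 counts without antibody, 9 to 104 with anti-PD-1 and 42, 660 and 113 in Comb. Its interaction was 4.88 (95% interval 0.63 to 9.12) and 5.23 (SE 1.88) without Comb replicate 3.

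The type I interferon list changed direction without Comb replicate 3, and the interferon gamma list did not. Over all genes tested 47.6% were higher, and 49.1% without that tumor. In the interferon gamma list 22 of 38 genes were higher, with a median of 0.05, and without that tumor 28 of 38, with a median of 0.14, and in both cases 0 passed the threshold. Within this list Ifngr1, the receptor, was at 1.27 (SE 0.63) and at 0.50 (SE 0.40) without that tumor. For type I interferon, 26 of 28 were lower than additive (median -0.23), but without Comb replicate 3 it was the reverse, with 26 of 28 higher (median 0.14), and the list level of that tumor was 4.58 against 6.37 to 6.97 in the other 11. MHC class I genes were split 10 and 10, with a median of -0.01, B2m at 0.79 (SE 0.50; 0.21 without Comb replicate 3) and Tapbp at -0.35 (SE 0.32). The inflammatory response had 25 of 33 higher with a median of 0.30, and 24 of 33 with 0.26 without Comb replicate 3, and the neutrophil list a median of 0.16 over 16 genes.

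The lists of mitosis, DNA replication and Myc genes were below the median of all genes as a whole, and nearer to it without Comb replicate 3. The share of all genes above additive was 47.6%, and 49.1% without that tumor. All 37 mitosis genes (median -0.68), all 33 DNA replication genes (-0.57) and all 28 Myc and ribosome biogenesis genes (-0.43) were lower than additive, and 0 genes of the 3 lists passed the unadjusted threshold in either direction. Without Comb replicate 3 the medians were -0.16, -0.09 and 0.01, and 1 of 37 mitosis genes and 1 of 33 DNA replication genes were lower at the threshold, against 0.837% of all genes in that fit. Cenpa, the histone of centromeres, was at -0.78 (SE 0.49), Prim1, the DNA primase subunit, at -0.85 (SE 0.63) and the nucleolar methyltransferase Fbl at -0.87 (SE 0.70). Cholesterol synthesis genes, 20 of 23 lower, had a median of -0.67, and -0.22 without Comb replicate 3. The 1 member past the threshold went the other way, Fdft1 (squalene synthase), at 1.0 (SE 0.44), and it was at 0.48 (SE 0.25) and not past it without that tumor.

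The median of the hypoxia and glycolysis genes was nearly the same when Comb replicate 3 was left out. With all tumors 21 of 28 were lower, with a median of -0.25, and without it 26 of 28, with a median of -0.23, against -0.01 over all genes. Higher than additive were 47.6% of all genes with all tumors and 49.1% without Comb replicate 3. Vegfa was the member past the threshold in both, Tpi1, the triosephosphate isomerase, was at -0.45 (SE 0.26), and the transcription factor gene Hif1a, above additive, at 0.32 (SE 0.24). The mean level of the list was 6.81 to 7.18 in Con, 6.69 to 6.97 with SFIH, 6.55 to 6.72 with anti-PD-1 and 6.36, 6.12 and 6.13 in Comb, with all 3 Comb tumors below every other tumor and 0.09, 0.33 and 0.32 below the additive level of 6.45. Oxidative phosphorylation (37 of 41 higher, median 0.32) and ribosomal proteins (38 of 42, median 0.37) were above it, at 0.11 and 0.12 without Comb replicate 3. Cox6c was at 1.20 (SE 0.60) and Rps20 at 1.07 (SE 0.59), and at 0.33 and 0.26 without that tumor.

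**Figure D4:**
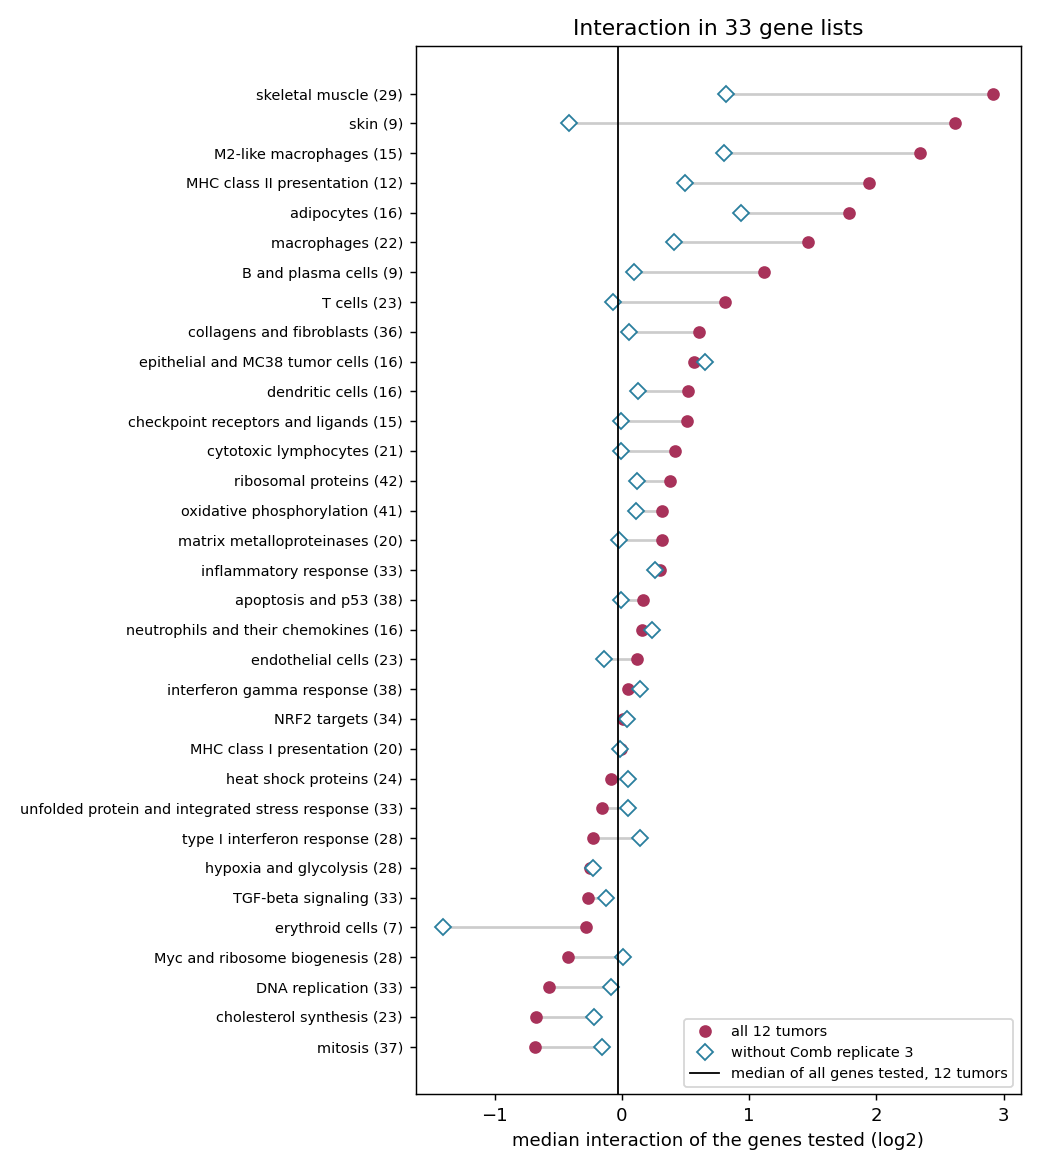
Median interaction (horizontal axis, log2) of the genes tested in each of 33 lists (vertical axis, number of genes in parentheses), with all 12 tumors (red circles) and without Comb replicate 3 (open blue diamonds), and the median of all genes tested as a line at -0.03. Most lists move toward the line without that tumor, skeletal muscle from 2.92 to 0.81 and mitosis from -0.68 to -0.16, whereas hypoxia and glycolysis stays at -0.25 and -0.23.

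TGF-β signaling had 22 of 33 genes lower, with a median of -0.27 and -0.13 without Comb replicate 3. Its one member past the threshold, Tgfbr3, the co-receptor betaglycan, was higher than additive: it had levels of 4.70 to 5.52 in Con, 4.60 to 5.02 with SFIH, 3.35 to 4.55 with anti-PD-1 and 4.48 to 5.45 in Comb (1.19, SE 0.51). It was at 0.91 (SE 0.47) and did not pass without Comb replicate 3. The receptor Bmpr2 was at -0.36 (SE 0.24). In the list of collagens and fibroblast genes, 4 of 36 members were above additive at the unadjusted threshold and 2 below, against 2.0% and 0.557% of all genes, and without Comb replicate 3 it was 0 above and 3 below. The matrix proteoglycan Lum was at 3.64 (SE 1.35), the matrix protein Dpt at 3.11 (SE 1.21), Dcn at 2.52 (SE 1.07) and the membrane protein Pdpn at 1.46 (SE 0.66). When Comb replicate 3 was left out these were 1.48 (SE 0.83), 1.67 (SE 0.91), 1.06 (SE 0.72) and 0.73 (SE 0.46), and none of the 4 passed the threshold. The collagen chains Col5a3 and Col6a3 were below, at -1.19 (SE 0.45) and -1.04 (SE 0.42), and were -0.85 (SE 0.21) and -1.22 (SE 0.39) without Comb replicate 3. Col6a3 had 5627 to 7711 counts in Con, 5994 to 9468 with SFIH, 12774, 4462 and 11460 with anti-PD-1 and 3856 to 5100 in Comb, so that PD replicate 2 overlapped Comb. The whole list had 25 of 36 higher and a median of 0.61, or 0.05 without Comb replicate 3.

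Genes of the NRF2 pathway, a known target of reactive sesquiterpene lactones, were split 17 and 17 with a median of 0.01. Of all genes tested, 47.6% were higher and 2.0% were higher past the threshold. Mgst1, a glutathione transferase and the 1 member past the threshold, was at 1.71 (SE 0.70), and at 0.82 (SE 0.44) and not past it without Comb replicate 3. Gsr, the glutathione reductase, was at -0.76 (SE 0.57). Heat shock proteins had a median of -0.08 over 24 genes, with Hspb8 at -0.82 (SE 0.54), the unfolded protein and integrated stress response -0.16 over 33 genes, and apoptosis and p53 0.16 over 38 genes, with Trp53 at -0.85 (SE 0.53). Endothelial genes had a median of 0.11 and -0.14 without Comb replicate 3, with Emcn, a sialomucin of veins and capillaries, at 0.97 (SE 0.57). Matrix metalloproteinases had a median of 0.32 and -0.02, and the neutrophil protein Lcn2 was at 1.03 (SE 0.60).

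Markers of muscle, skin and fat were above additive, with their highest summed levels in Comb replicate 3. Of 29 skeletal muscle genes tested, 26 were higher, 5 at an unadjusted p under 0.05, where all genes had 47.6% and 2.0%, and the median was 2.92. In the fit without Comb replicate 3, 18 of 29 were higher, 1 of them at the threshold, and the median was 0.81. Atp2a1, the calcium pump of fast muscle, had 57 to 138 counts in the 9 other tumors and 468, 58 and 3711 in Comb (3.75, SE 1.44), and Tnni2 and Actn3 gave 4.89 and 4.37. The 3 genes were at 1.08, 1.96 and 2.69 without Comb replicate 3, none past the threshold. With sample weights in limma-voom these 3 genes turned to -0.47, -1.42 and -2.36. The weights of Comb replicates 1, 2 and 3 were 0.29, 1.97 and 0.06, so that weighted Comb mean rested mostly on replicate 2. The 10 higher genes with the smallest p among those with at least 50 counts on average in their highest group all had their highest Comb level in replicate 3. Among them Unc45b, a chaperone of muscle myosin, had 7 to 17 counts outside Comb and 28, 27 and 160 in Comb (3.46, SE 1.01), Ppp1r3c, a subunit that directs a phosphatase to glycogen, 3 to 13 and 21, 54 and 467 (5.23, SE 1.5), and Aqp9, a channel for water and glycerol, 2 to 11 and 6, 19 and 160 (5.36, SE 1.53). These 3 values were 1.95 (SE 0.64), 2.85 (SE 0.93) and 2.96 (SE 1.03) without Comb replicate 3, each still past the threshold. Cox6a2, a muscle form of a cytochrome oxidase subunit, was at 2.63 (SE 0.89) and 1.47 (SE 0.59) without Comb replicate 3. In the skin list 9 of 9 genes were higher, with a median of 2.62, and without Comb replicate 3 it was 2 of 9 and -0.42, and Krt10 had 707 counts in that tumor against 20 to 52 in all others. Adipocyte genes had 12 of 16 higher, a median of 1.79 and 0.94 without it, with Lpl at 2.82 (SE 1.08) and Fabp4 at 2.73 (SE 1.09). Without it they were at 0.82 (SE 0.45) and 1.14 (SE 0.71), neither past the threshold.

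Ssu72 and Ptgs1 were also among these 10 higher genes with the smallest p and at least 50 counts on average. Ssu72, a phosphatase of RNA polymerase II, had levels of 6.41 to 6.57 in Con, 6.19 to 6.35 with SFIH, 5.90 to 6.04 with anti-PD-1 and 6.31, 6.51 and 7.21 in Comb, each at least 0.54 above the additive level of 5.77 (0.97, 95% interval 0.30 to 1.64; 0.65, SE 0.17, without Comb replicate 3). Ptgs1, the cyclooxygenase COX-1, was at 2.75 (SE 0.88) and 1.78 (SE 0.67) without that tumor, with all 3 Comb tumors above PD replicates 1 and 3. Fgf10, a growth factor of the mesenchyme, had the smallest p of all genes above additive but under 50 counts on average in each group: its levels were 1.23 to 1.68 in Con, 0.66 to 0.95 with SFIH, 1.40 to 1.74 with anti-PD-1 and 1.69, 3.18 and 2.48 in Comb (2.53, SE 0.72; 2.58, SE 0.75, without Comb replicate 3). It was picked out because of that p. In the list of epithelial and MC38 tumor cell genes, the transcription factor Snai2 gave 0.97 (95% interval 0.19 to 1.75) and 0.99 (SE 0.35) without Comb replicate 3, Krt8, a simple epithelial keratin, 5.17 (SE 1.90, and 2.57 without Comb replicate 3) on 0 to 20 counts outside Comb, and Sox9 -1.17 (SE 0.63). The list had 11 of 16 higher, against 47.6% of all genes, and a median of 0.57, and 0.65 without that tumor. Its summed level was 2760 to 4230 CPM in the 12 tumors. This sum runs over all members, Vim and Cd44 among them, and was not used as a measure of tumor cell content. In the erythroid list 6 of 7 genes were lower, with a median of -0.29 (-1.41 without Comb replicate 3) and Alas2, the heme synthesis enzyme of red cells, at -2.13 (SE 0.91).

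**Figure D5:**
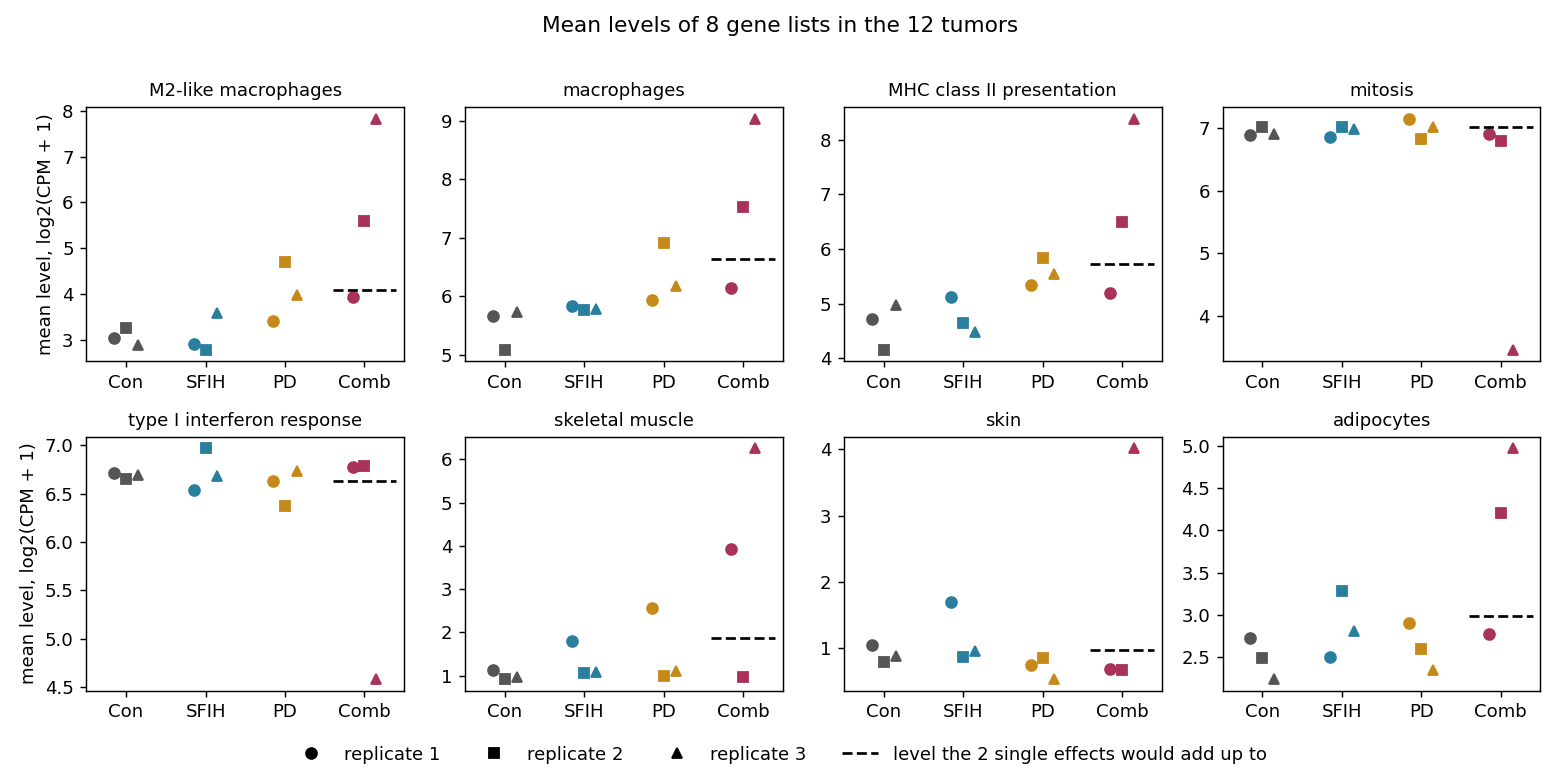
Mean level, as log2(CPM + 1) (vertical axes, which do not start at 0), of all measured members of 8 lists in the 4 groups, tested or not. Each replicate has a symbol, and a dashed line over Comb marks the level the 2 single effects would add up to. Comb replicate 3 is the highest or the lowest tumor in all 8 panels, at 7.83 for M2-like macrophages, 3.46 for mitosis and 6.26 for skeletal muscle.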

How the data were processed

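RNA of 12 MC38 tumors was read with the QuantSeq 3′ mRNA-Seq kit, and the authors deposited raw read counts per gene symbol, with 1 column per tumor and no normalization. The aligner, genome build, annotation and strand setting are not given in the sources used here. The sources used here name no molecular identifiers, and if none were used, counting error is a lower limit. The replicates are separate tumors. In R 4.3.3, edgeR 4.0.16 was used: filterByExpr, TMM, 1 coefficient per group, no block, the quasi-likelihood test of the interaction contrast, two-sided, with Benjamini-Hochberg adjustment over 13464 genes. Levels are log2(CPM + 1) with TMM. The ribosomal RNA precursor Rn45s took 4.28% to 17.1% of counts.

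Named were up to 10 genes per direction with the smallest p and at least 50 counts on average in their highest group, up to 10 of those that kept sign and p in all 13 fits, 19 genes of the study's assays or of the PD-1 axis, and up to 2 per direction in each list. Any other gene was chosen after its values were seen. Members and lists were chosen with earlier results of these data known. Of 873 listed symbols, 793 were tested. Scripts were tested on simulated data. Alternatives were DESeq2 1.42.0, limma 3.58.1 (voom, sample weights, trend), other normalizations and filters, a robust fit, a replicate block, no Rn45s, and each tumor left out. Python 3.11.15 and matplotlib drew the figures.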

Additional observations from a re-analysis of the deposited data

How the results depend on the processing

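The count of 0 genes at the adjusted threshold was kept in all alternatives except DESeq2, with 1. At the unadjusted threshold, against 269 higher and 75 lower, DESeq2 gave 499 and 118, limma-voom 68 and 131, limma-voom with sample quality weights 943 and 871, limma-trend 93 and 101, no filter on low counts 416 and 138, and a minimum of 50 counts on average 176 and 48. DESeq2 without Comb replicate 3, chosen after seeing the data, gave 109 and 114. Leaving out 1 tumor at a time gave 97 to 1617 higher and 37 to 767 lower. A fit with the replicate number as a block gave 141 higher and 56 lower. The labels do not say that the numbers pair the tumors: same-numbered tumors had deviations correlated at -0.29 to 0.41, over 0.1 in 6 of 18 pairs, and 2 of 12 tumors correlated best with one of their own number. The cause of these differences was not tested, other than that fewer or more genes were tested.

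The sign of 12 named genes turned under some alternative. limma-voom gave Cd8a -0.001 and Gzmb 0.056, limma-trend gave Gzmb 0.025, and no TMM gave Cd8a -0.021. With sample weights Gzmb was 1.0, Pdcd1 0.43, Cd274 0.38, Atp2a1 -0.47, Tnni2 -1.42 and Actn3 -2.36. Comb replicates 1, 2 and 3 had weights of 0.29, 1.97 and 0.06 in that fit, whose Comb mean thus rested mostly on replicate 2. DESeq2 without Comb replicate 3 gave Cd3e -0.56, Cd8a -0.045, Itgam -0.033 and Pdcd1lg2 -0.47. With 1 tumor left out at a time, Ifng was between -0.17 and 1.23, Ido2 -0.95 and 0.011, Cd3e -0.58 and 1.27, Cd8a -0.14 and 0.79, Gzmb -0.72 and 0.64, Itgam -0.051 and 0.77, Pdcd1 -0.93 and 0.39, and Pdcd1lg2 -0.49 and 4.0. Medians of 11 of the 33 lists changed sign without Comb replicate 3. Depth was 7870741 to 12261032 counts per tumor, and its part in the error of these values was not tested.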
